A study of Rattus norvegicus with 6 samples.

Results

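The AhR battery is the small group of genes through which the aryl hydrocarbon receptor (AhR) is usually read in liver: Cyp1a1, Cyp1a2, Cyp1b1, Ahrr, Aldh3a1, Ahr, Arnt, Ugt1a6 and Nqo1. These 9 genes were found among the 15284 genes that could be named on the array by the RefSeq accession of each probe. The genes were chosen with earlier results of these data known, so counts over them are not independent evidence of direction. All 15 of their probes were kept: 5 genes had several probes and 4 genes had 1. The livers came from 6 male Sprague-Dawley rats of the Crl:CD(SD) stock, bought at 5 weeks of age, with 1 single-colour Agilent array per rat. Of these, 3 rats were vehicle controls and 3 were dosed with ADBAQ (1-amino-2,4-dibromoanthraquinone, an anthraquinone used to make dyes) at 1000 mg/kg/day. The labels do not settle the vehicle, which is named as corn oil in one field and purified water in another, nor the length of dosing, given as 9 weeks and as 28 days. Age at sampling and the route of dosing are not stated, and no genotype or transgene is named for either group. Replicate numbers only name the rats.

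AhR is a ligand-activated transcription factor that waits in the cytosol bound to HSP90 and the co-chaperone p23 (gene Ptges3). Planar aromatic ligands release it to the nucleus, where it pairs with ARNT and binds DNA elements with the core GCGTG. Its classical liver targets are the CYP1 monooxygenases, which oxidise the ligands themselves, and a set of enzymes that oxidise aldehydes, reduce quinones or attach glucuronic acid. AHRR, a target as well, competes with AhR for ARNT and so damps the response. NQO1 and the UDP-glucuronosyltransferases are also targets of NRF2, the factor that answers oxidants and electrophiles.

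The 250 bases before the annotated start were at hand for 7 of the 9 genes, from RefSeq on the GRCr8 build. In them GCGTG was searched on both strands, so that CACGC counts as a match, and the longer TNGCGTG, which contains it, was searched in the same way. At least 1 GCGTG was found in 5 of the 7, against 27.2% of all 27457 promoters of that length. The Ahrr window (chr1:30821969-30822218, + strand) held 3, beginning 142, 117 and 57 bases before the start, and 3 or more occurred in 2.69% of all promoters. The Cyp1b1 window (chr6:21094315-21094564, + strand) held 2, beginning 81 and 20 bases before the start, and 2 or more occurred in 8.59%. Both also held 1 TNGCGTG, which 4.26% of promoters have. Arnt (42 bases before the start), Ugt1a6 (133 bases) and Nqo1 (10 bases) had 1 GCGTG each. The Cyp1a2 window (chr8:66978150-66978399, - strand) and that of Ahr had none, and TATAAA, searched on the forward strand and present in 8.38% of all windows, stood 39 bases before the start in Cyp1a2 and 59 bases before it in Nqo1. The 2 windows with the most matches and that of Cyp1a2, without a match, are shown 5′ to 3′ on the gene's strand, with the matches to GCGTG in capitals.
Ahrr: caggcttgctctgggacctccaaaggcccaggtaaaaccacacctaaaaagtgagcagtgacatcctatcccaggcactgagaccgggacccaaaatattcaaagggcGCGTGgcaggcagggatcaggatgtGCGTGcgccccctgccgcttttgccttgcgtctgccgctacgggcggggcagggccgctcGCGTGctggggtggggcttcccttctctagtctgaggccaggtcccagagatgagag
Cyp1b1: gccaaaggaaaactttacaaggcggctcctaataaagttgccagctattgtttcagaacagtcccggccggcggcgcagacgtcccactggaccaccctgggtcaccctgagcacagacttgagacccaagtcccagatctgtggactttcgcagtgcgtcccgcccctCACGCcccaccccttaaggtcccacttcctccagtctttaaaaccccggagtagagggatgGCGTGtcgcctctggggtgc
Cyp1a2: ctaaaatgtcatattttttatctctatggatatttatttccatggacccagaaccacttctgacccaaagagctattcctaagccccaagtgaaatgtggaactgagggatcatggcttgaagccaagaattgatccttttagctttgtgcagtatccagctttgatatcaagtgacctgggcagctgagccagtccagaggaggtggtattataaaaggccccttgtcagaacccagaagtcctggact
These letters describe the windows only. Elements farther upstream were outside them.

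Values are log2 of a probe's processed signal relative to the 75th percentile of its array, so 0 is the level of a probe at that percentile. They compare a probe between rats and not one probe with another. A change is the ADBAQ mean minus the vehicle mean on this scale, given ± its standard error (SE) from limma with 3 rats per group. A probe was called when its p, adjusted by Benjamini-Hochberg over all 38695 probes tested, was under 0.05. For a gene with several probes the probe that is brightest on average stands for the gene. Of the 9 genes 6 were called higher, where 9.05% of all 11344 genes tested were called higher and 20.3% in either direction. None was called lower by limma, though Arnt was lower at an unadjusted p under 0.05, and 3 genes (Ahr, Arnt and Nqo1) were not called. Of the 15 probes 12 were called higher, against 8.37% of all probes. The 3 values of each group lay apart in 8 genes, 7 of them higher in ADBAQ, as in 21.2% of all genes. The median change of the 9 genes was 3.71 and that of all genes -0.04. It was 2.33 when dim signals, those not well above background, were raised to the array's lowest signal that was, a setting added after the data were seen. Cyp1a1, Cyp1b1 and Ahrr were tested only because every ADBAQ array had them well above background, so the filter itself favoured a rise in them. With detection on all 6 arrays required, these were left out and 4 genes were called, Arnt lower and the others higher. The median change was then 1.26.

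**Figure D1:**
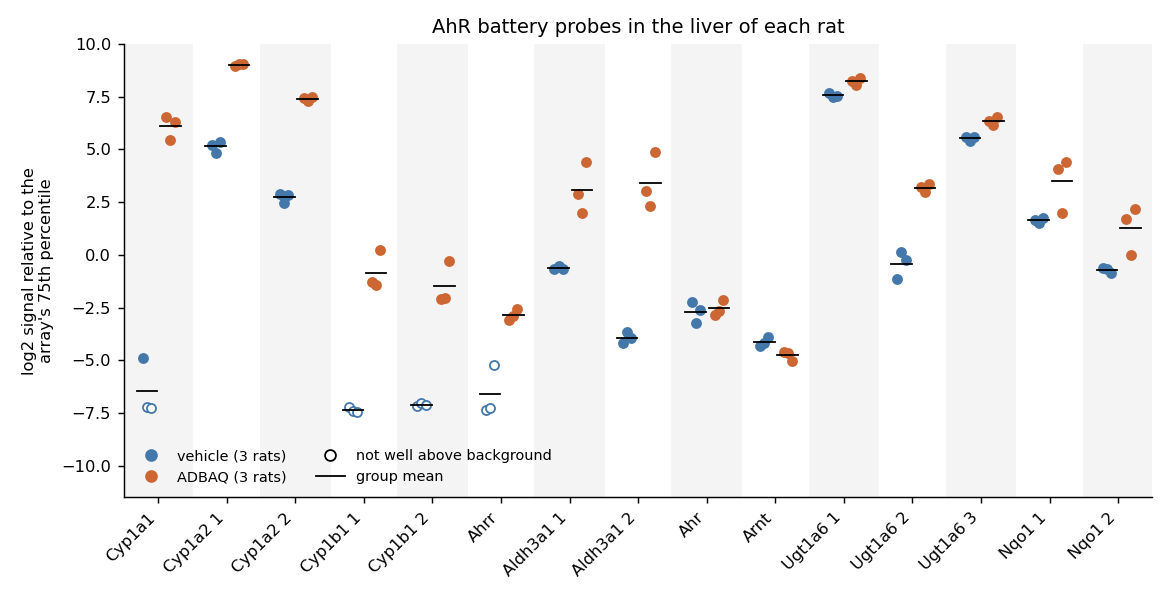
Log2 signal of each of the 15 probes in each rat (blue vehicle, orange ADBAQ, 3 rats each; the line is the group mean and open circles mark signals not well above background). Cyp1a1 lies between -7.27 and -4.88 in vehicle rats and between 5.45 and 6.53 in ADBAQ rats, whereas the groups of Ahr overlap.

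Arrays were alike within groups, with Pearson correlations over the probes tested of 0.989 to 0.993 within a group and 0.975 to 0.981 between groups. Between 62.1% and 65.3% of probes were well above background, and no probe was saturated. The 75th percentile of the signal was 433 to 461 on vehicle arrays and 570 to 643 on ADBAQ arrays. All vehicle arrays lay on 1 slide read on 1 day and all ADBAQ arrays on another slide read on another day, so slide, scan day and treatment cannot be told apart. The 6 hepatocyte markers, Alb and Ttr among them, were well above background on all 6 arrays. In bulk liver RNA, fewer cells of a type and less RNA per cell cannot be told apart.

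The receptor itself did not pass the test. Ahr had log2 values of -2.24, -3.22 and -2.63 in vehicle rats and -2.83, -2.64 and -2.13 in ADBAQ rats. The groups overlapped, and the lowest value of all 6 was that of vehicle rat 2. The difference was 0.16 ± 0.29, with a 95% confidence interval from -0.54 to 0.87 (adjusted p = 0.722). It was 0.92 (adjusted p = 0.0267) when arrays were scaled to the spike-in controls, which moves the median of all genes from -0.04 to 0.72, and -0.07 with normexp background correction.

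Arnt, the DNA-binding partner of AhR, had log2 values of -4.35, -4.18 and -3.88 in vehicle and -4.59, -4.67 and -5.04 in ADBAQ. All 3 ADBAQ rats lay below all vehicle rats. The difference was -0.63 ± 0.17 (95% confidence interval -1.05 to -0.21) and just missed the threshold, with an adjusted p of 0.0514. It passed with normexp background correction (-0.56, adjusted p = 0.00512) and had the opposite sign, 0.12, with spike-in scaling. The probe was dim, at 22.4 to 29.4 signal units in vehicle and 18.1 to 26.7 in ADBAQ, so on the unscaled signal the groups overlapped.

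Ahrr, the repressor, was not well above background in any vehicle rat and was so in every ADBAQ rat. Its log2 values were -7.36, -7.28 and -5.22 in vehicle against -3.10, -2.90 and -2.55 in ADBAQ. Every ADBAQ rat lay above every vehicle rat, and vehicle rat 3 stood above the other two. The change was 3.77 ± 0.58 (adjusted p = 0.0114). Because vehicle gave only a limit, the fold depends on how dim signals are set. It was 5.02-fold with dim values raised, that is, against each vehicle array's lowest detected signal or the probe's own where higher. That lowest signal belongs to the array and is not this probe's own limit, so 5.02-fold is not a strict minimum. With normexp background correction, whose offset of 50 shrinks folds of dim probes, the change was 0.74 (adjusted p = 0.00565).

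Cyp1a1, the P450 most used as a reporter of AhR activity, went from near background in vehicle to a bright signal in ADBAQ. Its processed signal was 15.5, 3.11 and 2.81 in vehicle rats, of which the first alone was well above background, and 59486, 25003 and 46524 in ADBAQ rats. On the log2 scale these are -4.88, -7.21 and -7.27 against 6.53, 5.45 and 6.29. Among ADBAQ rats the second was lowest. The change was 12.54 ± 0.68 (95% confidence interval 10.9 to 14.2; adjusted p = 0.000908) and ranked 1 among 11344 genes, also with dim values raised. The factor depends on how the dim vehicle signals are treated: 5973-fold as measured, 2288-fold with the dim values raised, and a log2 change of 8.66 with normexp.

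Cyp1a2, the constitutive CYP1 enzyme of hepatocytes that oxidises caffeine and aromatic amines, was detected in every rat and rose in all 3 ADBAQ rats. Its representative probe had log2 values of 5.22, 4.84 and 5.36 in vehicle and 8.96, 9.06 and 9.06 in ADBAQ. The ADBAQ rats differed among themselves by 1.07-fold from lowest to highest. The change was 3.88 ± 0.15, or 14.7-fold (adjusted p = 0.000403), ranking 17 among all genes and 9 with dim values raised. The other probe went from 2.88, 2.46 and 2.84 to 7.45, 7.30 and 7.49, a change of 4.68 ± 0.14, or 25.7-fold (adjusted p = 0.000238).

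Cyp1a2 is mainly a pericentral gene. As background for the marker counts that follow, 1281 of all 11344 genes tested were called lower and 1027 higher. Of 6 markers of pericentral hepatocytes, Rhbg was called higher (1.29) and Oat (-1.83), Glul (-1.07) and Cyp2e1 (-1.06) lower. The call of Rhbg was lost without vehicle rat 3 or ADBAQ rat 2 or 3, and that of Glul without vehicle rat 2 or 3 or ADBAQ rat 1. The summed level of the 6 markers, in units of the 75th percentile, was 395 to 427 in vehicle and 174 to 237 in ADBAQ. Such a sum is weighted to the brightest probes, here Cyp2e1 (log2 values of 8.455 to 8.613 in vehicle, with Oat next at 4.513 to 4.912). Of 6 periportal markers 5 were called lower (Arg1 not without ADBAQ rat 1), with a summed level of 474 to 544 against 291 to 304. Of the 6 general hepatocyte markers 4 were called lower, with a summed level of 4892 to 5341 against 3916 to 4177. The calls of Alb and Ttr were lost with any 1 array left out. On this scale Cyp1a2 rose while the summed levels of all 3 hepatocyte lists were lower in ADBAQ. The pericentral sum is mostly the value of Cyp2e1 and does not speak for Rhbg, which was higher. The median change of the general list was -0.36, -0.03 with quantile normalization and 0.40 with spike-in scaling. In the same order it was -0.82, -0.74 and -0.06 for the pericentral list and -0.98, -0.90 and -0.23 for the periportal list. The part of these shifts in the values of the battery was not tested.

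Cyp1b1, the CYP1 enzyme that is usually sparse in liver, was not well above background in any vehicle rat with either probe. The representative probe had log2 values of -7.20, -7.39 and -7.43 in vehicle and -1.31, -1.44 and 0.21 in ADBAQ. All ADBAQ rats were above all vehicle rats, and ADBAQ rat 3 was 3.13-fold above the lowest of the other two. The change was 6.50 ± 0.43 (adjusted p = 0.00148), and 2.46 with normexp. With dim values raised it was 20.2-fold. The other probe went from -7.15, -7.05 and -7.13 to -2.10, -2.06 and -0.28, and again ADBAQ rat 3 was above the other two. Its change was 5.63 ± 0.48 (adjusted p = 0.00303), and 1.65 with normexp. With dim values raised it was 12.99-fold.

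**Figure D2:**
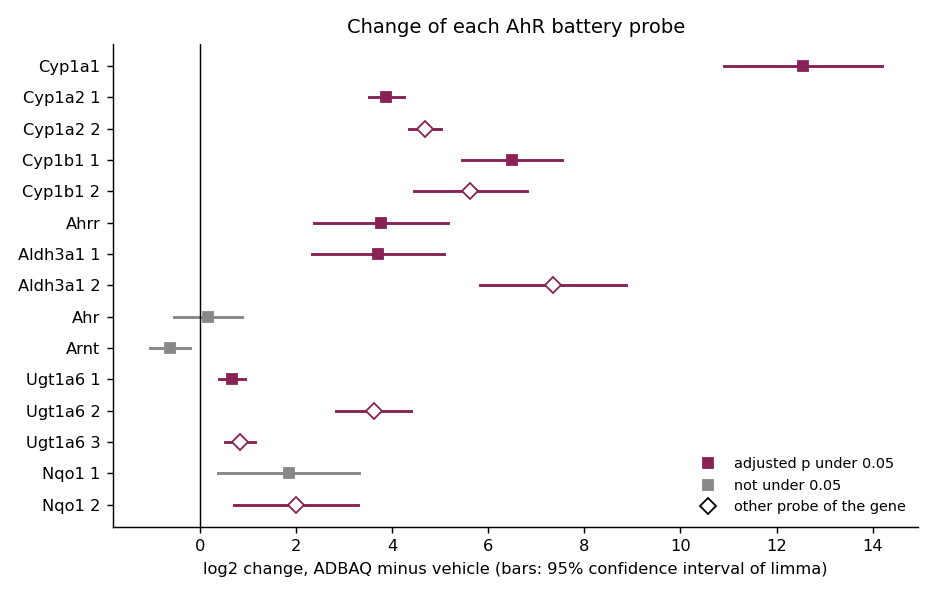
Log2 change, ADBAQ minus vehicle, of each of the 15 probes with its 95% confidence interval from limma (squares: representative probe; diamonds: other probes of the gene; grey: adjusted p not under 0.05). The interval of Ahr spans 0, and those of the 2 Aldh3a1 probes (changes of 3.71 and 7.35) do not overlap.

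Aldh3a1, an aldehyde dehydrogenase that is low in normal rat liver, rose in all 3 ADBAQ rats and to different extents. Its representative probe had log2 values of -0.66, -0.52 and -0.69 in vehicle and 2.88, 1.97 and 4.41 in ADBAQ. The vehicle rats were close together, and the highest ADBAQ rat was 5.41-fold above the lowest. The change was 3.71 ± 0.57, or 13.1-fold (adjusted p = 0.0116). The other probe read -4.19, -3.67 and -3.95 in vehicle and 3.05, 2.30 and 4.88 in ADBAQ, a change of 7.35 ± 0.63, or 163-fold (adjusted p = 0.003). In vehicle this probe was dim though detected, at 25.0 to 36.2 signal units, so its fold depends on the background. With normexp its change was 5.71 and that of the representative probe 3.54. The rats had the same order with both probes, ADBAQ 2 lowest and ADBAQ 3 highest. With the mean of the probes the change was 5.53.

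Nqo1, the quinone reductase, was higher in every ADBAQ rat but by unequal amounts. Its representative probe had log2 values of 1.67, 1.49 and 1.76 in vehicle and 4.07, 1.99 and 4.41 in ADBAQ. Against the vehicle mean, ADBAQ rats 1 and 3 were higher by 2.43 and 2.77 on the log2 scale, and ADBAQ rat 2 by 0.35. The difference was 1.85 ± 0.61 (95% confidence interval 0.38 to 3.32) and did not pass (adjusted p = 0.0824). Without ADBAQ rat 2 it was 2.60 (adjusted p = 0.00511). It passed with normexp (1.88, adjusted p = 0.0328) and with spike-in scaling (2.60, adjusted p = 0.00684) as well. The other probe read -0.64, -0.66 and -0.86 against 1.68, -0.02 and 2.17, with ADBAQ rat 2 again the lowest of its group. Its change of 1.99 ± 0.53 passed (adjusted p = 0.0491), but not without any 1 vehicle rat or without ADBAQ rat 1 or 3 (adjusted p up to 0.136).

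Ugt1a6, a glucuronosyltransferase of planar phenols, was measured by 3 probes of 2 transcript accessions. The representative probe, designed on NM_001039691, had log2 values of 7.67, 7.49 and 7.55 in vehicle and 8.23, 8.08 and 8.39 in ADBAQ. The groups lay apart by less than 1 log2 unit. The change was 0.67 ± 0.11, or 1.59-fold (adjusted p = 0.015). Without ADBAQ rat 1 it was 0.67 as well and was no longer called (adjusted p = 0.0527). The other probe of NM_001039691 rose from 5.58, 5.38 and 5.60 to 6.37, 6.16 and 6.53, by 0.83 ± 0.13 (adjusted p = 0.0112). The probe of NM_057105 rose from -1.15, 0.12 and -0.24 to 3.22, 2.99 and 3.37. That is 3.61 ± 0.32, or 12.2-fold (adjusted p = 0.00324). With the mean of the 3 probes the change of the gene was 1.70.

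The Ugt1a genes of rat share their 3′ exons and differ in the first exon, so a probe in the shared part reads several of them. Which part each probe lies in was not examined here, and the values of the family are uncertain for that reason. Of 7 further Ugt1a genes, 3 had a named probe. Ugt1a2 rose by 0.74 ± 0.13 (adjusted p = 0.016, lost without ADBAQ rat 1) and Ugt1a9 by 1.22 ± 0.33 (adjusted p = 0.0496, lost without each array in turn except ADBAQ rat 3). Ugt1a1, the bilirubin-conjugating form, changed by -1.41 ± 0.15 (adjusted p = 0.00462).

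Whether probes of a gene gave the same change was tested on the difference between them within each array, with limma over all 7926 such probe pairs, a test added after the data were seen. Of the 6 pairs of the battery 4 passed the threshold, against 0.669% of all pairs, and 1 of these, that of Cyp1b1, rests on vehicle signals below background with both probes. The share over all pairs is of genes with any size of change, and genes that changed as much as these were not examined apart. The 2 Aldh3a1 probes differed by 3.64 ± 0.13 (95% confidence interval 3.33 to 3.95, adjusted p = 0.000464), and this stayed under the threshold with any 1 array left out. With normexp the difference was smaller, at 2.165 (adjusted p = 0.000463). The NM_057105 probe of Ugt1a6 exceeded the representative probe by 2.95 ± 0.36 (adjusted p = 0.0398), a call lost without vehicle rat 3 or any 1 ADBAQ rat (adjusted p up to 0.138). The second probe of Cyp1a2 changed by 0.80 ± 0.09 more than the first (adjusted p = 0.032), a call lost with any 1 array left out (adjusted p 0.0526 to 0.123). For Cyp1b1 the fitted difference was -0.87 (adjusted p = 0.0493, lost with any 1 array left out). It is not a measured difference in fold, since neither probe was well above background in vehicle. With dim values raised the probes gave 20.2-fold and 12.99-fold. For Nqo1 the difference was 0.15 (95% confidence interval -0.23 to 0.53) and for the NM_001039691 pair of Ugt1a6 it was 0.17 (0.01 to 0.32; adjusted p = 0.251).

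**Figure D3:**
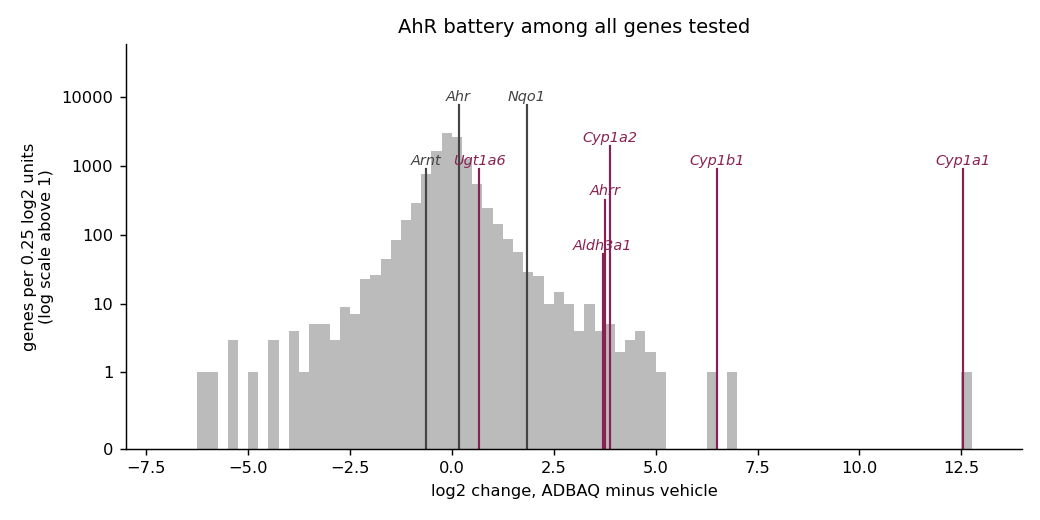
Number of genes per 0.25 log2 units of change (grey, log scale above 1, 11344 genes), with a vertical line at the change of each battery gene (red: called higher; dark grey: not called; line heights only separate the names). Cyp1a1 at 12.54 and Cyp1b1 at 6.50 lie to the right of nearly all genes, and Ahr, Arnt and Ugt1a6 lie within the bulk. Lines stand at the representative probes, and other probes of a gene are not drawn (1 of those of Ugt1a6 changed by 3.61).

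The spread between the ADBAQ rats differed from gene to gene. From the lowest to the highest ADBAQ rat, log2 values spanned 2.43 for Aldh3a1, 2.42 for Nqo1, 1.64 for Cyp1b1 and 1.08 for Cyp1a1. They spanned 0.71 for Ahr, 0.55 for Ahrr, 0.45 for Arnt, 0.32 for Ugt1a6 and 0.10 for Cyp1a2. The median over all genes was 0.243 in ADBAQ and 0.276 in vehicle. In vehicle rats Aldh3a1 spanned 0.17, Nqo1 0.27 and Cyp1b1 0.23, whereas Cyp1a1 spanned 2.39 and Ahrr 2.14, both mostly below background.

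ADBAQ rat 3 had the highest value of its group in 7 of the 9 genes and ADBAQ rat 2 the lowest in 5. The 7 include Cyp1a2, in which ADBAQ rats 2 and 3 were nearly tied (both 9.058). Over all genes ADBAQ rat 3 was highest in 35.3% and ADBAQ rat 2 lowest in 32.1%. Cyp1a2 was 3.82, 3.91 and 3.91 above the vehicle mean in the 3 rats, on the same arrays on which Aldh3a1 was 3.50, 2.59 and 5.03 above it. With 3 rats, no relation between genes across animals was tested.

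**Figure D4:**
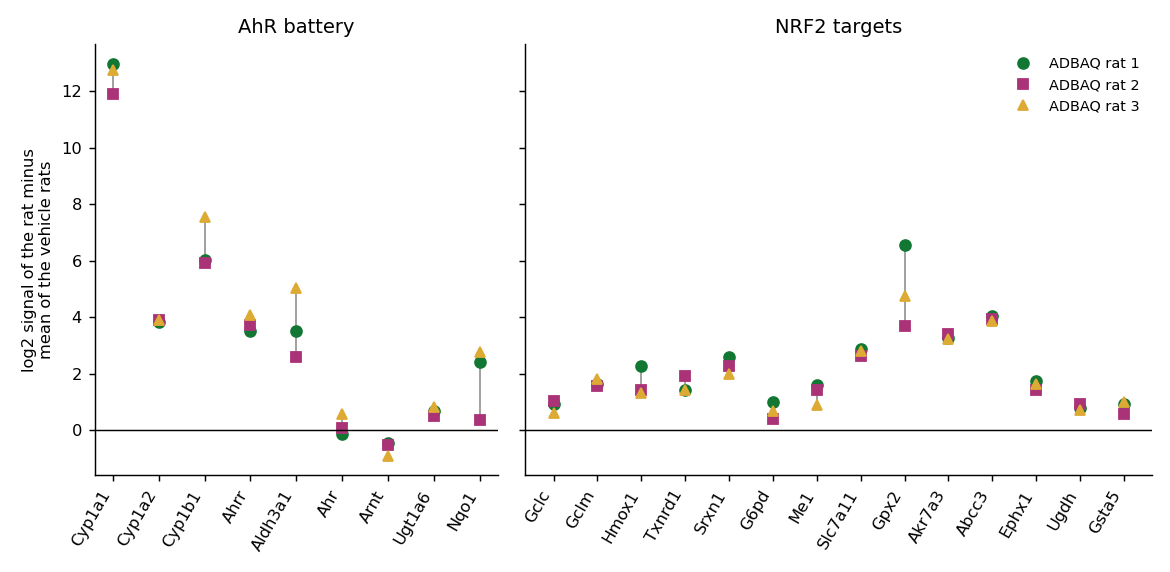
Log2 signal of each ADBAQ rat minus the mean of the vehicle rats (green circle rat 1, purple square rat 2, yellow triangle rat 3), for the 9 battery genes (left) and 14 NRF2 targets (right). Rat 2 is at 0.35 for Nqo1 with rats 1 and 3 at 2.43 and 2.77, whereas the rats nearly coincide for Cyp1a2 and Slc7a11.

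Nqo1 is a target of NRF2 too, so 14 other NRF2 targets are given beside it. All 14 were called higher, where 9.05% of all genes were, with a median change of 1.64, and between 10 and 13 of them were called with 1 array left out. The list was drawn up with earlier results of these data known and is not independent evidence of its direction. The 4 largest changes were those of Gpx2, a glutathione peroxidase (4.99 ± 1.04, adjusted p = 0.0252), Abcc3, an efflux pump (3.95 ± 0.34, adjusted p = 0.003), Akr7a3, an aldehyde reductase (3.30 ± 0.28, adjusted p = 0.003), and Slc7a11, the cystine transporter (2.76 ± 0.15, adjusted p = 0.000887). The call of Gpx2 was lost without vehicle rat 1 or 3 or ADBAQ rat 1 or 3 (adjusted p up to 0.0756). ADBAQ rat 2, which was low for Nqo1, had the lowest ADBAQ value in 6 of these 14 genes. For Txnrd1, thioredoxin reductase, it was the highest, at 1.92 above the vehicle mean against 1.42 in both of the other rats.

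The receptor's cytosolic partners and nuclear co-regulators were called about as often as genes in general. Of 13 such genes 9 were tested, and Ncoa1, Ncoa3, Ep300 and Ddb1 had no named probe. Of the 9 tested the counts were 1 called higher and 1 lower, 2 of 9 where 20.3% of all genes were called, with a median change of 0.00, or 0.76 with spike-in scaling. Ptges3, the p23 co-chaperone, rose by 0.34 ± 0.08 (adjusted p = 0.0388), a call lost without each of the 6 arrays in turn (adjusted p up to 0.105). Arnt2, a paralog of Arnt, changed by -0.41 ± 0.09 (adjusted p = 0.0285), but 1 alone of its 3 probes had that direction, the change was 0.35 with spike-in scaling, and the call held with vehicle rat 1 left out and with no other array left out. Hsp90aa1 (0.21), Hsp90ab1 (0.06), Ncoa2 (0.04), Crebbp (-0.12), Cul4b (-0.12) and Hif1a (0.00), which competes for ARNT, did not pass. The interval of Hif1a ran from -0.22 to 0.22, while that of Hsp90aa1 was wider, from -0.34 to 0.76.

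Of 17 further genes that have been described as AhR targets in various tissues, 10 were tested, 3 had no named probe (Tiparp, Ugt1a7c and Selenbp1) and 4 were not well above background on all arrays of either group (Scin, Serpinb2, Ereg and Ptgs2). Among the 10, 5 were called higher, 1 lower and 4 not, where 9.05% of all genes were called higher and 20.3% in either direction. Their median change was 0.72. Fgf21, a fasting hormone, rose by 2.88 ± 0.63 (adjusted p = 0.0288, lost without vehicle rat 3 or any 1 ADBAQ rat). Igfbp1, a binding protein of insulin-like growth factors, rose by 1.93 ± 0.51 (adjusted p = 0.0479, lost without each array in turn except vehicle rat 1). Slc7a5, an amino acid transporter, changed by 1.70 ± 0.24 (adjusted p = 0.00982), but it was not well above background in vehicle. It was 1.73-fold higher with dim values raised, and with normexp the change was 0.02 (adjusted p = 0.891). Cd36, which takes up fatty acids, rose by 1.24 ± 0.19 (adjusted p = 0.0116), and Nfe2l2, the gene of NRF2, by 0.90 ± 0.12 (adjusted p = 0.00867). Ugt1a1 was the 1 that fell. Cyp2s1 (0.12), Gsta2 (0.53), Hes1 (0.31) and Abcg2 (-0.00) did not pass.

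Markers of other liver cells were read on the same arrays, where 20.3% of all genes tested were called, 1281 of them lower and 1027 higher. Their summed levels are likewise weighted to the brightest probe of each list. None of 6 Kupffer cell and macrophage markers was called by limma or had an unadjusted p under 0.05, with a summed level of 55.8 to 70.7 in vehicle and 60.3 to 70.6 in ADBAQ. None of 3 endothelial markers was called by limma (2 were lower at an unadjusted p under 0.05), at 36.9 to 40.8 against 30.2 to 34.5. Of 6 stellate cell markers 2 were called lower, Hand2 (-1.39) among them, at 111 to 168 against 68.1 to 83.4. Of 5 cholangiocyte markers Epcam (0.82) and Cftr (0.83) were called higher and Krt7 (-0.61) lower, at 1.57 to 1.87 against 2.45 to 3.84. These calls were lost without each array in turn for Epcam, without ADBAQ rat 1 or 3 for Cftr and without vehicle rat 3 or ADBAQ rat 1 or 2 for Krt7, and Cftr changed by 0.14 with normexp (adjusted p = 0.244). Of 4 lymphocyte markers Cd8a (-0.85) was called lower, at 1.28 to 1.49 against 1.16 to 1.24, a call lost without each array in turn except vehicle rat 1. With spike-in scaling the median change of the stellate list turned from -0.44 to 0.32, that of the endothelial list from -0.28 to 0.48 and that of the lymphocyte list from -0.23 to 0.53. The Kupffer cell and macrophage list went from 0.09 to 0.85, and each of its markers was then called higher by limma (adjusted p up to 0.0186). The cholangiocyte list went from 0.82 to 1.58, and the median of all genes from -0.04 to 0.72. No marker was below background on every array, and the part of these cells in the values of the battery was not tested.

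For 3 members the genes with the most similar values were sought among 10769 genes detected on all 6 arrays, by the root mean square difference of the 6 log2 values, each relative to the vehicle mean. Nearest to Cyp1a2 were Trib3 (0.417 log2 units), Dusp13b (0.420) and Nrg1 (0.508). Nearest to Aldh3a1 were Mmd (0.601), Nrg1 (0.735) and Cyp1a2 itself (0.747). Nearest to Nqo1 were Car6 (0.393), Msantd3 (0.460) and Ahsp (0.471). Car6, a secreted carbonic anhydrase, lay at 1.93, -0.10 and 2.13 relative to the vehicle mean in ADBAQ rats 1, 2 and 3. Like Nqo1 it was lowest in ADBAQ rat 2, a likeness that the search selected for. In that rat Car6 lay within the range of the vehicle rats (-0.37 to 0.30), whereas Nqo1 lay above every vehicle rat. Car6 did not pass the test either (1.32 ± 0.59, adjusted p = 0.165). The likeness is a description over 6 arrays that share their slides and scaling.

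**Figure D5:**
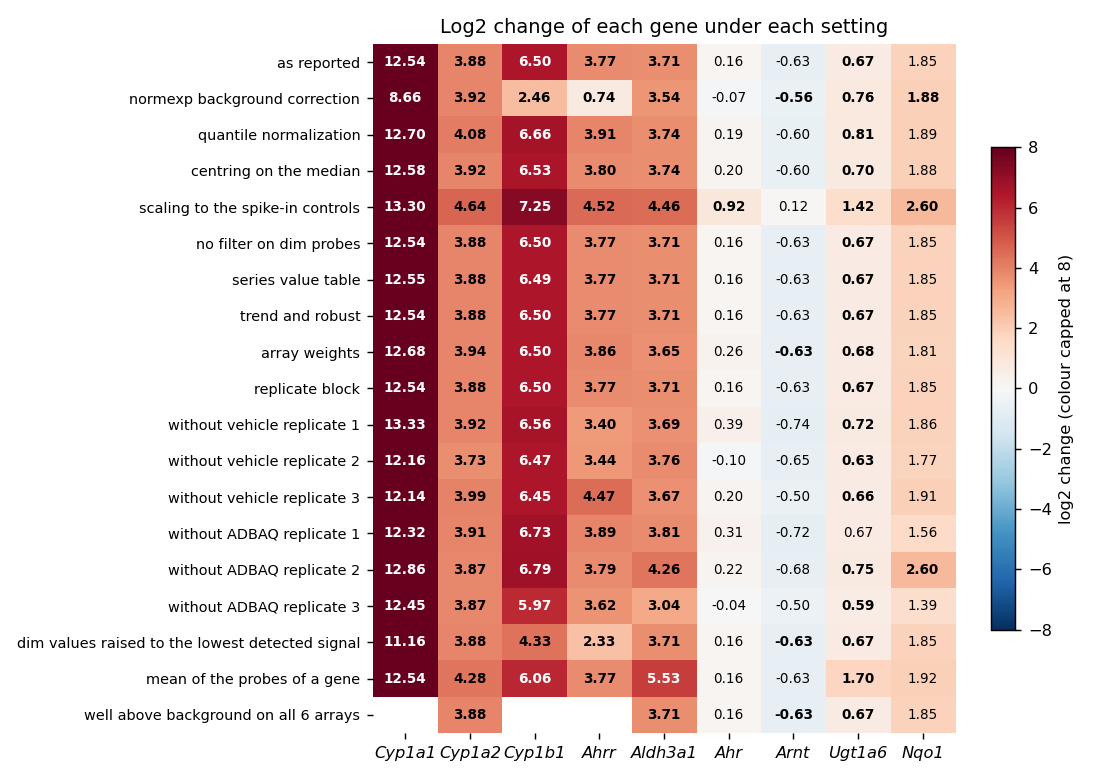
Log2 change of each battery gene (columns) under each processing setting (rows), in numbers and colour (red higher, blue lower in ADBAQ; colour capped at 8; bold: adjusted p under 0.05; blank: probe not tested). Cyp1a2 keeps to 3.73 to 4.64 in all settings, whereas Ahrr falls from 3.77 to 0.74 and Cyp1b1 from 6.50 to 2.46 with normexp.

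Across 18 other settings between 4 and 8 of the 9 genes were called. The lowest number came from the filter that requires detection on all 6 arrays, which leaves out Cyp1a1, Cyp1b1 and Ahrr. Cyp1a2 and Aldh3a1 were called in every setting, and Cyp1a1, Cyp1b1 and Ahrr in every setting in which they were tested.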

How the data were processed

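The deposited scanner files hold intensity values, per the file headers from Agilent Feature Extraction 10.7.1.1 (10.7 per the submitters' processing notes) on an array design annotated on rn4: the background-subtracted processed signal and the medians of the spot and of its local background. Further columns of other kind, per the file headers, are flags for spots well above background, saturated or outlying. The deposited series table holds a ratio, the processed signal over about the array's 75th percentile, made by the authors. This was found from the values, with column medians from 0.0929 to 0.0982. Its scale is linear and it is not centred on genes. No sample was pooled, and the genome positions of probes were not used.

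From these, log2 of the processed signal minus each array's 75th percentile was computed for 61657 probes, without the 1319 control spots and 0 to 2 outlying spots per array. RefSeq accessions named 27460 probes of 15284 genes and left 34197 unnamed. A probe was kept if every array of either group had it well above background. Groups were compared with limma 3.58.1 (lmFit and eBayes) in R 4.3.3, with Benjamini-Hochberg adjustment, and the procedure was tested on simulated data. The number of arrays, 3 per group, limits the precision. An exact permutation test of 3 against 3 cannot go below p = 0.1.

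Named were every member and probe, the 4 largest called changes of each pathway list, and the 3 nearest genes of Cyp1a2, Aldh3a1 and Nqo1. Car6 and Txnrd1 were described further after their values were seen. A few genes counted in the lists are not reported here by name. Members, lists and markers were chosen with earlier results of these data known. Rats sharing a replicate number did not deviate together (correlations of -0.0292, -0.02 and -0.00456), so the numbers do not pair them. Alternatives were normexp (offset 50, on the median spot signal), quantile normalization, median centring, spike-in scaling, other filters, the series table, trend and robust, array weights, a replicate block, averaged probes per gene and each array left out. Slide as a block was not run, because each slide holds 1 group.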

Additional observations from a re-analysis of the deposited data

How the results depend on the processing

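Over all genes 2308 were called as reported, 4041 with normexp, 9130 with spike-in scaling, 3530 with no filter on dim probes, 982 with the replicate block and 922 (without ADBAQ replicate 1) to 1565 (without vehicle replicate 1) with 1 array left out. Of the calls 44.5% were higher as reported, 34.5% with normexp, 97.9% with spike-in scaling and 32.4% with no filter. The median of the battery was 3.71 as reported, 1.88 with normexp, 1.26 with probes detected on all 6 arrays (6 genes) and 2.33 with dim values raised. Of the receptor complex 2 genes were called as reported, 9 with spike-in scaling, 0 with the replicate block (limma; 2 at an unadjusted p under 0.05) and 0 to 1 with 1 array left out (2 unadjusted each time). Ahr had the opposite sign with normexp (-0.0705), and with 1 array left out it lay between -0.0971 (without vehicle replicate 2) and 0.390 (without vehicle replicate 1), also below 0 without ADBAQ replicate 3 (-0.0398). Opposite signs were also found for Arnt with spike-in scaling (0.124) and for the difference between the Nqo1 probes with normexp (-0.0477). Arnt was called with detection on all 6 arrays required (adjusted p = 0.0441), array weights (0.0476) and dim values raised (0.0486). The replicate block changed no call of a member and ended the probe differences of Cyp1a2, Cyp1b1 and Ugt1a6 (adjusted p 0.133, 0.0929 and 0.133). The cause of these shifts was not tested, except that the filters change which probes are tested and that spike-in scaling shifts all genes of an array alike. Signal over background limits Cyp1a1, Cyp1b1 and Ahrr, whose vehicle values were mostly not well above background.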
